A study of Mus musculus with 8 samples.

Results

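The microRNA processing and silencing machinery was followed through 10 genes: Drosha, Dgcr8, Xpo5, Dicer1, Prkra, Ago1, Ago2, Tnrc6a, Tnrc6b and Tnrc6c. They were chosen by name, as every gene probe whose annotation in the 0.2 set carried one of these symbols or the older symbols Eif2c1, Eif2c2 and Rnasen. This gave 14 of the 39429 probes of the array, for 10 of 30139 named genes. The cells were mSCC-20, a cutaneous squamous cell carcinoma line from an FVB/N mouse, and every culture had been transfected. The control transfection (NC, a control microRNA) was hybridised on 4 arrays, miR-193b-3p on 2 arrays and miR-365a-3p on 2 arrays, each array carrying Cy3-labelled total RNA. The labels split the arrays by an amount in µg. The 0.2 set holds NC replicates 1 and 2 and both miR-193b arrays, and the 0.6 set holds another pair of NC arrays, also numbered 1 and 2 here, and both miR-365a arrays. What the amount measures is not said in the labels, nor is the time of harvest or whether replicates were separate cultures, so every p value here reflects no more than the scatter among the arrays at hand.

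MicroRNAs are cut from long nuclear transcripts by Drosha, an RNase III enzyme held by its RNA-binding partner Dgcr8, and the hairpin is carried to the cytoplasm by the export receptor Xpo5. Dicer1 then cuts off the loop with help from double-stranded RNA-binding partners such as Prkra, and an Argonaute protein keeps a single arm as its guide. The Argonaute finds mRNAs mainly through the seed of that guide, and the Tnrc6 scaffold proteins bound to it bring in the enzymes that shorten poly(A) tails and remove caps.

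The mature microRNAs named in the labels are shown because they are the treatments, with the seed (bases 2 to 8) in capitals. Their hairpins are shown because they are the natural substrates of the genes measured, with the arm that becomes the mature microRNA in capitals. Sequences are those of RefSeq on GRCm38.p6, where miR-365a-3p is listed as mmu-miR-365-3p. All lie on the plus strand.
mmu-miR-193b-3p, chr16:13449570-13449591: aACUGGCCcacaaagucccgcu
mmu-miR-365-3p, chr16:13453895-13453916 and chr11:79726467-79726488: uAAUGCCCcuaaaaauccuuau
Mir193b hairpin, chr16:13449523-13449601: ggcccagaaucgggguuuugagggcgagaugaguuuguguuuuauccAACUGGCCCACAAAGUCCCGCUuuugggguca
Mir365-1 hairpin, chr16:13453840-13453926: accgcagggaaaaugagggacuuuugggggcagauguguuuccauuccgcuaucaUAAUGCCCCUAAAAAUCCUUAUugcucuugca

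The Mir193b and Mir365-1 hairpins lie 4238 bases apart on chromosome 16, and a second copy of the miR-365 hairpin lies on chromosome 11. Set side by side, the seeds have the same base at 5 of 7 positions, although they are different seeds. The 7 bases complementary to each seed are GGCCAGT for miR-193b-3p and GGGCATT for miR-365-3p. They were searched in the 60-base probes as written for the array, not on the opposite strand. Neither was found in any of the 14 probes, where 0.294% and 0.312% of all 39429 probes held them. With shares that small, none is the likely count for any 14 probes, so the search does not set these genes apart. That describes these 60-base windows and not the transcripts around them.

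Each array had 43020 gene spots, and the share well above background was 51.4% to 54.6% for arrays of the 0.2 set and 58.9% to 62.1% for those of the 0.6 set. Saturated spots numbered 0, and RNA integrity numbers were 10 throughout per the labels. All 12 keratinocyte and squamous carcinoma markers (among them Krt5, Krt14 and Trp63) were well above background on all 8 arrays. The lists of other cell types were mixed. Col3a1, Dcn and Lum of fibroblasts and Cdh5, Tek and Emcn of endothelium were so on none. Pdgfra of fibroblasts and Kdr and Esam of endothelium were so on all 8. So were Itgam, Cd68 and Cd3e of 6 leukocyte markers, and Mlana and Mitf of 5 melanocyte markers. Signals are given as log2 values relative to the array's 75th percentile of gene spots, so that 0 is the brightness of that percentile and 1 more unit is a doubling. All 10 genes were tested, their main (brightest) probes being well above background on all 8 arrays. Effects are log2 differences from the NC arrays of the same set, with the standard error of a limma fit to all 8 arrays, and a gene was called at a Benjamini-Hochberg adjusted p under 0.05 over 17856 genes. Probes differ in brightness for reasons other than RNA amount, so levels are compared between arrays and never between genes.

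After miR-365a, 4 of the 10 genes changed, and they did not move in a single direction. Prkra, the partner of Dicer1, rose 2.07-fold and Tnrc6a, a silencing scaffold, rose 1.71-fold, while Ago1 fell 1.65-fold and Tnrc6c, another scaffold, fell 2.28-fold. The core enzymes and the export receptor (Drosha, Dgcr8, Xpo5 and Dicer1) gave differences between -0.06 and 0.12 and were not called. The share of all 17856 genes called after miR-365a was 15.8%, with 7.77% higher and 7.99% lower. After miR-193b, 0 of the 10 genes were called, where 2.86% of all genes were. At an unadjusted p under 0.05 the limma fit also gave 0 of the 10 after miR-193b, against 21.3% of all genes.

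**Figure D1:**
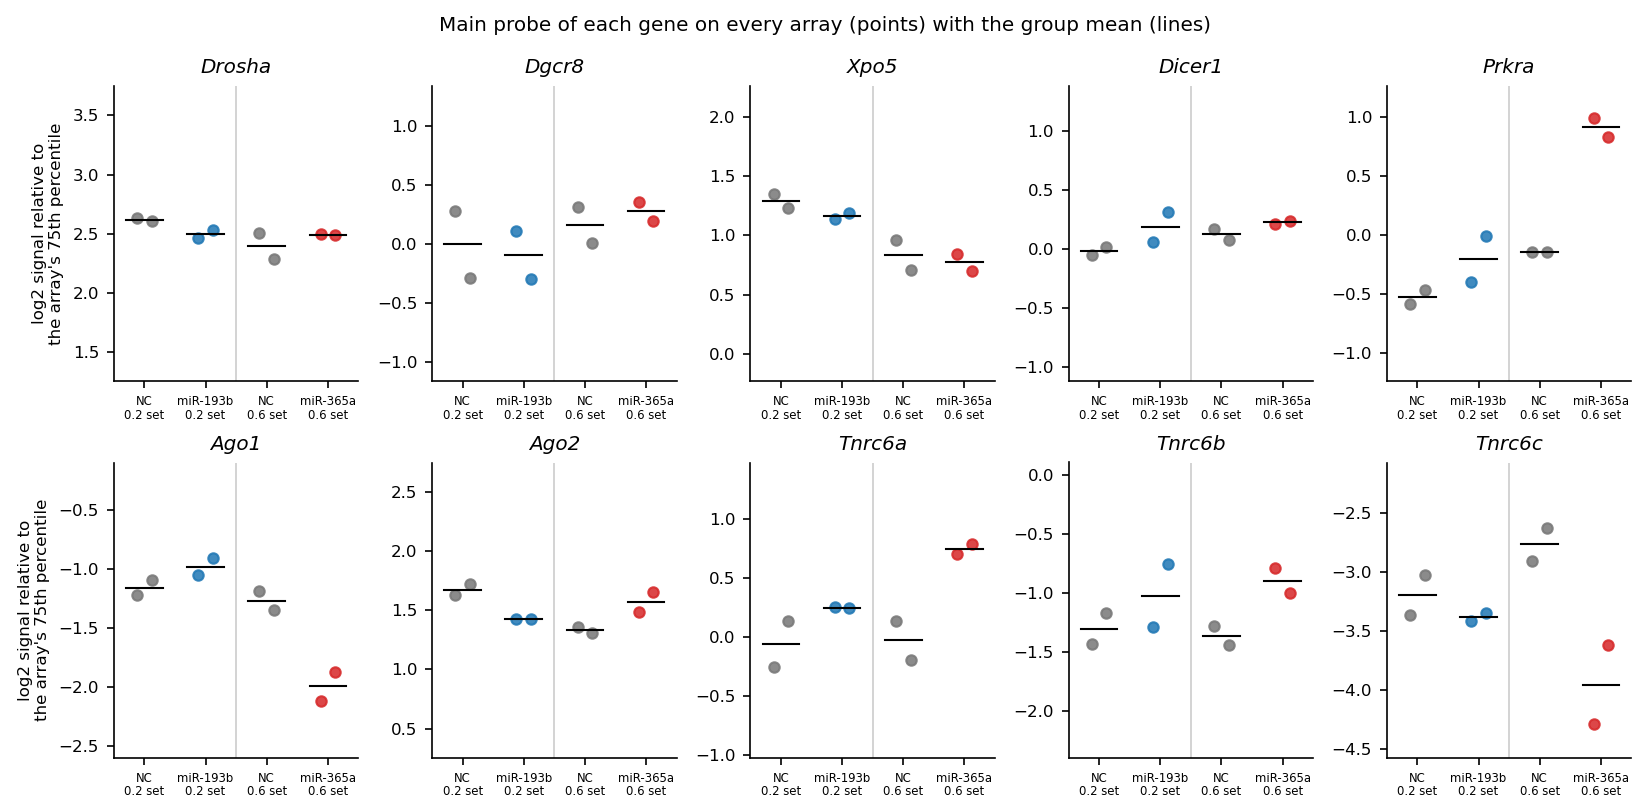
Log2 signal of the main probe of each of the 10 genes, relative to the array's 75th percentile (y axis, the same span in every panel), on the 8 arrays by transfection and set; points are arrays and lines are the means of 2 arrays. The miR-365a points of Prkra and Tnrc6a lie above the other 6 arrays and those of Ago1 and Tnrc6c below them, while Drosha spans only 2.28 to 2.63.

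The nuclear step was measured with 2 probes for Drosha and 1 for Dgcr8. Drosha, by its main probe A_55_P2039603 (mm9 chr15:12864767-12864826, plus strand), read 2.63 and 2.60 on the NC arrays and 2.46 and 2.53 on the miR-193b arrays of the 0.2 set. In the 0.6 set it read 2.50 and 2.28 on NC and 2.49 and 2.49 on miR-365a. The miR-193b arrays lay below both of their NC arrays by a small step, and the miR-365a arrays lay between theirs. The differences were -0.12 ± 0.12 (adjusted p = 0.578) after miR-193b and 0.10 ± 0.12 (adjusted p = 0.669) after miR-365a. The 95% interval after miR-365a ran from -0.19 to 0.38, so a doubling of Drosha mRNA lies outside it. The second Drosha probe, A_55_P2039601, gave 0.01 after miR-193b and 0.11 after miR-365a, neither called.

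Dgcr8, which binds the primary transcript and positions Drosha, was measured by A_55_P2108067 (mm9 chr16:18254226-18254285, minus strand). It read 0.28 and -0.28 on NC and 0.12 and -0.29 on miR-193b in the 0.2 set. In the 0.6 set NC read 0.31 and 0.01 and miR-365a read 0.36 and 0.20. Replicates differed by up to 0.56, more than any group did, and the groups overlapped in both sets. The differences were -0.09 ± 0.24 and 0.12 ± 0.24, with 95% intervals of -0.67 to 0.49 after miR-193b and -0.46 to 0.70 after miR-365a. The upper end after miR-365a is close to the 0.77 called for Tnrc6a, so Dgcr8 is among the less precisely measured genes.

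Xpo5, the export receptor for the hairpins, was measured by A_52_P201232 (mm9 chr17:46378755-46378814, plus strand). It read 1.35 and 1.23 on NC and 1.14 and 1.19 on miR-193b in the 0.2 set, and 0.96 and 0.70 on NC and 0.84 and 0.70 on miR-365a in the 0.6 set. All 4 arrays of the 0.6 set were below all 4 of the 0.2 set, and within the 0.6 set the groups overlapped. The differences from NC were -0.13 ± 0.14 (adjusted p = 0.597) after miR-193b and -0.06 ± 0.14 (adjusted p = 0.830) after miR-365a. Between the NC arrays alone, the 0.6 set was -0.46 ± 0.14 against the 0.2 set (adjusted p = 0.0675), not called, beside 15.5% of all genes called and a median of 0.12 over all genes in that contrast. The whole 0.6 set was on 1 slide of its own, so amount, slide and scan cannot be told apart there. The summed signal of 6 leukocyte markers relative to the 75th percentile was also higher in the 0.6 set (5.69 to 7.31 against 3.31 to 4.04), as was that of 6 endothelial markers (3.48 to 4.89 against 1.21 to 1.65). Of these lists, 3 leukocyte and 2 endothelial genes were well above background on all 8 arrays, and Cdh5, Tek and Emcn on none. Itgam averaged 1.86 over the 8 arrays against -0.18 for Cd68, the next brightest leukocyte marker. Kdr averaged 1.14 against -3.04 for Esam, the next of the endothelial list. Each sum thus leans mainly on 1 gene. Their part in the set difference was not tested.

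Dicer1, which cuts the hairpin into the mature duplex, was measured by A_66_P103301 (mm9 chr12:105926064-105926123, minus strand). It read -0.05 and 0.01 on NC and 0.05 and 0.31 on miR-193b in the 0.2 set, and 0.17 and 0.07 on NC and 0.21 and 0.23 on miR-365a in the 0.6 set. Both microRNA groups lay above their NC arrays, by gaps smaller than the spread of the miR-193b pair. The differences were 0.20 ± 0.13 (adjusted p = 0.400) and 0.10 ± 0.13 (adjusted p = 0.676). The 95% interval after miR-365a ran from -0.21 to 0.41.

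Prkra encodes PACT, which binds double-stranded RNA and Dicer and also activates the kinase PKR. Its probe A_51_P345836 (mm9 chr2:76468199-76468258, minus strand) read -0.58 and -0.46 on NC and -0.39 and -0.01 on miR-193b in the 0.2 set. In the 0.6 set it read -0.14 on both NC arrays and 0.99 and 0.83 on miR-365a. The miR-365a arrays stood above each of the other 6 arrays, the nearest of which was a miR-193b array. The rise after miR-365a was 1.05 ± 0.16 (95% interval 0.67 to 1.43, adjusted p = 0.0106), the largest rise among the 10 genes. After miR-193b the difference was 0.32 ± 0.16 (adjusted p = 0.298) and not called, though both miR-193b arrays lay above their NC arrays. Without miR-365a replicate 1, miR-365a replicate 2 or NC replicate 1 of the 0.6 set, the adjusted p after miR-365a was 0.0716, 0.0547 and 0.0623, with differences of 0.97, 1.13 and 1.05. A single probe measured Prkra, so no second probe bears on the rise.

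The Argonaute genes had 5 of the 14 probes. Ago1, whose protein carries guides and lacks strong cleaving activity, was measured mainly by A_52_P76402 (mm9 chr4:126112644-126112703, minus strand, from base 6617 of its transcript). It read -1.22 and -1.09 on NC and -1.05 and -0.91 on miR-193b in the 0.2 set, and -1.18 and -1.35 on NC and -2.11 and -1.87 on miR-365a in the 0.6 set. The other 6 arrays spanned only -1.35 to -0.91, and both miR-365a arrays were below all of them. Ago1 fell by 0.72 ± 0.14 on the log2 scale after miR-365a (95% interval -1.07 to -0.38, adjusted p = 0.0224). After miR-193b the difference was 0.18 ± 0.14 (adjusted p = 0.498), with both arrays above NC. The call after miR-365a was lost without any 1 of the 4 arrays of the 0.6 set. The adjusted p was then 0.119 and 0.0591 without NC replicates 1 and 2, and 0.121 and 0.0652 without miR-365a replicates 1 and 2, with differences of -0.64, -0.81, -0.60 and -0.85. With no filter on dim probes it was 0.0734.

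The second Ago1 probe is shown because it reads a separate stretch of the mRNA, from base 2289 of the transcript.
Ago1 probe A_55_P2184751, mm9 chr4:126117202-126117261, minus strand: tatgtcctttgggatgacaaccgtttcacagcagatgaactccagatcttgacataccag

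This probe was much dimmer, and was well above background on 6 of 8 arrays (not on replicate 1 of NC or of miR-193b in the 0.2 set). It read -5.16 and -5.05 on NC and -6.10 and -5.79 on miR-365a in the 0.6 set, and from -5.39 to -4.58 in the 0.2 set. Its miR-365a arrays were again the lowest of the 8. The difference was -0.84 ± 0.25 (adjusted p = 0.0739 over 23284 probes), of like size to the main probe but not called, beside 15.7% of all probes called. The main probe was called in the same probe-level fit.

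Ago2, the Argonaute that can cleave a fully paired target, had 3 probes. The main one, A_51_P180001 (mm9 chr15:72936863-72936922, minus strand), read 1.63 and 1.72 on NC and 1.42 and 1.43 on miR-193b in the 0.2 set, and 1.36 and 1.31 on NC and 1.48 and 1.65 on miR-365a in the 0.6 set. Groups did not overlap in either set, with miR-193b below and miR-365a above NC. The differences were -0.25 ± 0.12 (95% interval -0.52 to 0.03, adjusted p = 0.279) and 0.23 ± 0.12 (95% interval -0.05 to 0.51, adjusted p = 0.232), neither called. The other Ago2 probes gave -0.18 and -0.04 after miR-193b and 0.04 and -0.14 after miR-365a, so the 3 probes shared a sign only after miR-193b.

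The Ago2 probes parted more clearly between the sets. A_55_P2002133 (mm9 chr15:72935705-72935764) read -2.09 and -2.16 on NC in the 0.2 set and -1.56 and -1.36 on NC in the 0.6 set, a rise of 0.67 ± 0.15 (adjusted p = 0.0338, beside 14.5% of all probes called). The main Ago2 probe went the other way, at -0.34 ± 0.12 by the gene-level fit (adjusted p = 0.0962, not called). The remaining probe, A_55_P2297485 (mm9 chr15:72928888-72928947), differed by -0.18 and is named Eif2c2 in the 0.2 set but 2310051F07Rik in the 0.6 set. Its place in Ago2 therefore rests on the annotation of the 0.2 set, and it is the only 1 of the 14 probes whose accession did not lead to the same gene.

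**Figure D2:**
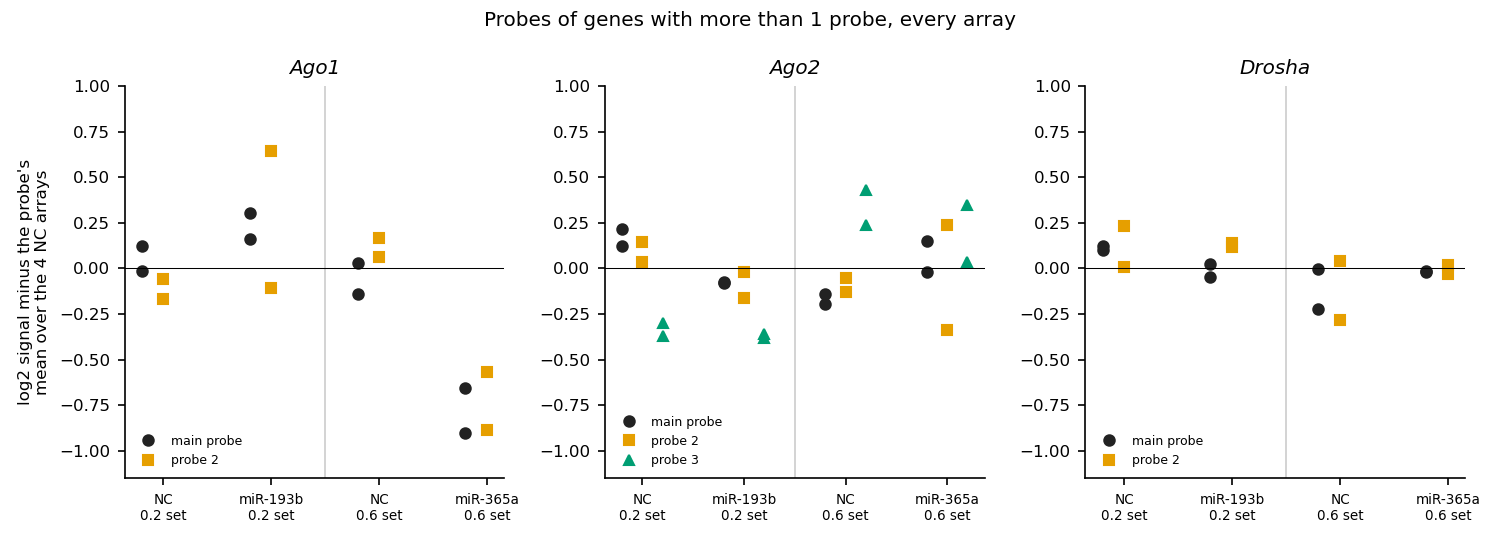
Log2 signal of each probe of Ago1, Ago2 and Drosha on the 8 arrays, minus that probe's mean over the 4 NC arrays (y axis), by transfection and set (x axis); each symbol is 1 probe on 1 array. Both Ago1 probes are lowest on the miR-365a arrays, while the third Ago2 probe is higher in the 0.6 set than in the 0.2 set, unlike the main Ago2 probe.

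The Tnrc6 genes encode the GW182 scaffolds, which tie Argonaute to the deadenylase complexes. Tnrc6a, by A_51_P509229 (mm9 chr7:130338627-130338686, plus strand), read -0.25 and 0.14 on NC and 0.25 and 0.25 on miR-193b in the 0.2 set. In the 0.6 set it read 0.14 and -0.19 on NC and 0.70 and 0.79 on miR-365a. The miR-365a pair lay above all other arrays, the highest of which was at 0.25. Tnrc6a rose by 0.77 ± 0.18 after miR-365a (95% interval 0.35 to 1.20, adjusted p = 0.0342), and the difference after miR-193b was 0.31 ± 0.18 (adjusted p = 0.363). The miR-365a call was lost without any 1 of the 4 arrays of the 0.6 set, with adjusted p of 0.0700 and 0.131 without NC replicates 1 and 2 and 0.124 and 0.158 without miR-365a replicates 1 and 2, and differences of 0.94, 0.61, 0.82 and 0.73. It was also lost without either miR-193b array (adjusted p = 0.0597) and with no filter on dim probes (0.0977), where the difference itself stayed at 0.77.

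Tnrc6b, by A_55_P1987534 (mm9 chr15:80759793-80759852, plus strand), read -1.43 and -1.17 on NC and -1.29 and -0.75 on miR-193b in the 0.2 set, and -1.28 and -1.44 on NC and -0.79 and -1.001 on miR-365a in the 0.6 set. The miR-365a pair lay above both of its NC arrays and the miR-193b pair overlapped its own. The differences were 0.28 ± 0.21 (adjusted p = 0.469) after miR-193b and 0.47 ± 0.21 (95% interval -0.04 to 0.97, adjusted p = 0.191) after miR-365a, neither called.

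Tnrc6c, by A_55_P2133806 (mm9 chr11:117624691-117624750, plus strand), read -3.36 and -3.02 on NC and -3.42 and -3.35 on miR-193b in the 0.2 set. In the 0.6 set it read -2.90 and -2.62 on NC and -4.29 and -3.62 on miR-365a. Both miR-365a arrays were below the other 6, although they differed from each other by more than any other pair of this gene. Tnrc6c fell by 1.19 ± 0.25 after miR-365a (95% interval -1.79 to -0.59, adjusted p = 0.0263). In this fit it was the largest difference among the 10 genes in size. The difference after miR-193b was -0.19 ± 0.25 (adjusted p = 0.683). Without NC replicate 1, NC replicate 2 or miR-365a replicate 1 of the 0.6 set, the adjusted p was 0.0843, 0.107 and 0.0999, with differences of -1.33, -1.05 and -0.86. The call was also lost with the 0.6 set fitted alone or slide as a fixed block (both 0.0556) and with no filter on dim probes (0.0742). The fall was -0.93 with normexp background correction, -0.76 with the deposited log2 values and -0.97 against all 4 NC arrays. Prkra was then larger in size, at 1.00, 1.00 and 1.24. A single probe measured Tnrc6c, at processed signals of 93.1 to 228.

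**Figure D3:**
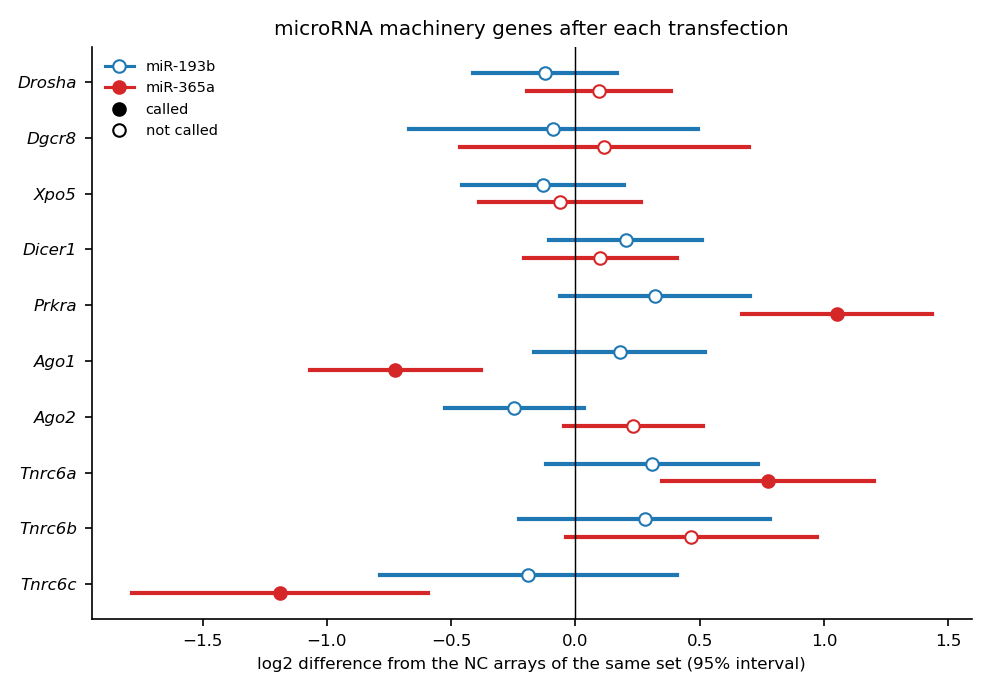
Log2 difference of each gene from the NC arrays of its set (x axis), with the 95% interval of the limma fit as bars, after miR-193b (blue) and miR-365a (red); filled circles were called. The 4 filled circles are all miR-365a, 2 to the right of 0 (Prkra at 1.05, Tnrc6a at 0.77) and 2 to the left (Ago1 at -0.72, Tnrc6c at -1.19).

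Over the 10 genes, the median difference after miR-365a was 0.11 beside 0.02 for all genes tested, with 7 above 0 and 3 below. The microRNA and NC arrays did not overlap for 7 of the 10 genes, 5 higher and 2 lower, where 61.6% of all genes did not overlap. The median size of the difference, sign ignored, was 0.35 for the 10 genes and 0.27 for all genes. The count of 4 called fell to 0 without NC replicate 1 of the 0.6 set or without miR-365a replicate 1, and to 1 without NC replicate 2 of that set (Prkra), without miR-365a replicate 2 (Tnrc6c), or with no filter on dim probes (Prkra). On the miR-365a arrays the summed signal of 5 melanocyte markers relative to the 75th percentile was lower than on their NC arrays (1.30 to 1.35 against 1.71 to 1.94). The sum of 3 simple epithelial keratins was higher (162 to 165 against 115 to 131). Of the melanocyte list, Mlana and Mitf were well above background on all 8 arrays and Dct on none, and all 3 keratins were so on all 8. Mitf averaged 0.45 over the 8 arrays against -2.24 for Mlana, the next brightest. The melanocyte sum thus mainly follows Mitf alone. The part of either list in the 4 changes was not tested.

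After miR-193b the median was 0.04 beside 0.05 for all genes, and the differences ran from -0.25 (Ago2) to 0.32 (Prkra), with 5 above 0 and 5 below. Arrays did not overlap for 7 of the 10, 4 higher and 3 lower, where 52% of all genes did not overlap. The median size was 0.20 beside 0.24 for all genes. Slides 1 to 3 carried the 0.2 set, and slide 1 alone held both groups. The miR-193b difference on slide 1 was set beside that between slides 3 and 2, where slide and microRNA cannot be told apart. They were 0.18 and 0.46 for Prkra, 0.50 and 0.11 for Tnrc6a, -0.20 and -0.29 for Ago2 and 0.17 and 0.18 for Ago1. For Dgcr8 they were -0.17 and -0.01, for Xpo5 -0.22 and -0.04 and for Tnrc6c -0.05 and -0.32. Over all pairs of a miR-193b and an NC array, the difference ran from -0.58 to 0.40 for Dgcr8. It ran from -0.12 to 0.68 for Tnrc6b and from -0.39 to 0.02 for Tnrc6c. The summed signal of the keratinocyte markers was higher on the miR-193b arrays (750 and 795 against 545 and 558 on NC). So were the sums of the melanocyte list (1.95 and 2.24 against 1.47 and 1.73) and of 6 fibroblast markers (0.126 and 0.130 against 0.103 and 0.119). Of the fibroblast list, 1 gene (Pdgfra) was well above background on all 8 arrays and Col3a1, Dcn and Lum on none. The melanocyte sum mainly follows Mitf here too. The percentile itself was lower on the miR-193b arrays (1176 and 1125 against 1635 and 1384). Before division by it, the keratinocyte and melanocyte sums overlapped those of NC. The fibroblast sums were then lower (148 and 147 against 169 and 165). The part of these lists in the differences was not tested.

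The effects of the microRNAs were also set against each other in the same fit, each relative to its own NC arrays. None of the 10 genes was called for this difference, beside 3.47% of all genes. At an unadjusted p under 0.05, 4 of the 10 differed, beside 20.1% of all genes. These were Ago1 (miR-365a minus miR-193b, -0.90 ± 0.20, adjusted p = 0.0667), Tnrc6c (-1.0002 ± 0.35, adjusted p = 0.183), Prkra (0.73 ± 0.22, adjusted p = 0.137) and Ago2 (0.48 ± 0.16, adjusted p = 0.174). Tnrc6a, which was called after miR-365a, gave 0.47 ± 0.25 (adjusted p = 0.361). The 4 changes after miR-365a were thus not shown to differ between the microRNAs. The Ago1 difference passed the threshold in 5 of 22 alternatives, with the lowest adjusted p, 0.0108, when both microRNAs were set against all 4 NC arrays (the range over the 22 was 0.0108 to 0.200). Against all 4 NC arrays the Prkra difference was called too (1.11, adjusted p = 0.0214).

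The wider pathway was read from 4 lists of 61 further genes, all on the array and 59 of them tested. After miR-365a, 0 rose and 4 fell, beside 15.8% of all genes called (7.99% lower). After miR-193b, 1 rose and 0 fell, beside 2.86% of all genes called. Neither count exceeds the share over all genes. The medians were 0.07 after miR-365a and -0.01 after miR-193b, close to the 0.02 and 0.05 of all genes. Of 10 nuclear processing and export partners, 0 were called after either microRNA, with 1 at an unadjusted p under 0.05 after miR-193b and 3 after miR-365a in the limma fit. The shares of all genes at that unadjusted p were 21.3% and 31.2%. The closest relatives of the 10 genes were not called. Ago3 differed by 0.03 ± 0.18 after miR-193b and -0.08 ± 0.18 after miR-365a. Its probe was dim, at -5.11 to -4.63, and well above background on 7 of 8 arrays (not on miR-193b replicate 1). Tarbp2, the other RNA-binding partner of Dicer, differed by 0.12 ± 0.11 and -0.03 ± 0.11. Ago4 was well above background on 3 of 8 arrays only, and its standard error of 0.70 leaves its response unresolved.

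Of 13 genes for dicing and Argonaute loading, 2 fell after miR-365a, beside 15.8% of all genes called (7.99% lower), and 0 were called after miR-193b. The count called is thus near the share over all genes. Fkbp5, an Hsp90 co-chaperone best known from steroid receptors, read 1.77 and 1.69 on NC and 0.14 and 0.27 on miR-365a. Its fall of 2.88-fold (-1.53 ± 0.14, adjusted p = 0.0034) was larger than that of any of the 10 genes, and on the miR-193b arrays it read 1.87 and 1.83 beside 1.70 and 1.99 on NC. Ipo8, a nuclear import receptor reported to bind Argonautes, read 1.10 and 1.07 on NC and 0.53 and 0.44 on miR-365a (-0.60 ± 0.15, adjusted p = 0.0458). The Ipo8 call was lost without any 1 of the 4 arrays of the 0.6 set (differences of -0.65 to -0.56, adjusted p of 0.132 to 0.197) and without either miR-193b array (0.0673). It was also lost with median centring (0.0562) and with no filter on dim probes (0.127), and stayed in 15 of 23 alternatives.

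Of 22 tested silencing effectors and P-body factors, 2 fell after miR-365a, close to the 7.99% of all genes that were lower, and 0 were called after miR-193b. Edc3, which stimulates decapping, read -2.10 and -1.98 on NC and -3.09 and -3.14 on miR-365a, a fall of 2.11-fold (-1.08 ± 0.15, adjusted p = 0.0085). Wtip, a LIM protein of the Ajuba family, read 3.06 and 2.89 on NC and 1.87 and 1.75 on miR-365a, a fall of 2.25-fold (-1.17 ± 0.12, adjusted p = 0.0044). Without miR-365a replicate 1 or 2 the adjusted p of Edc3 was 0.0548 and 0.0596, while Fkbp5 and Wtip stayed called in all 23 alternatives. For the difference between the microRNA effects, Fkbp5 (-1.54, adjusted p = 0.0180) and Wtip (-1.04, adjusted p = 0.0321) were called, and Edc3 lay at the threshold (-1.09, adjusted p = 0.04999). Of 22 alternatives, these differences stayed called in 14 for Fkbp5, 10 for Wtip and 8 for Edc3, and leaving out an array ended the Wtip call each time. Mov10, an RNA helicase found with Argonautes and singled out after its values were seen, gave 1.45 ± 0.40 after miR-365a (adjusted p = 0.0571), not called.

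**Figure D4:**
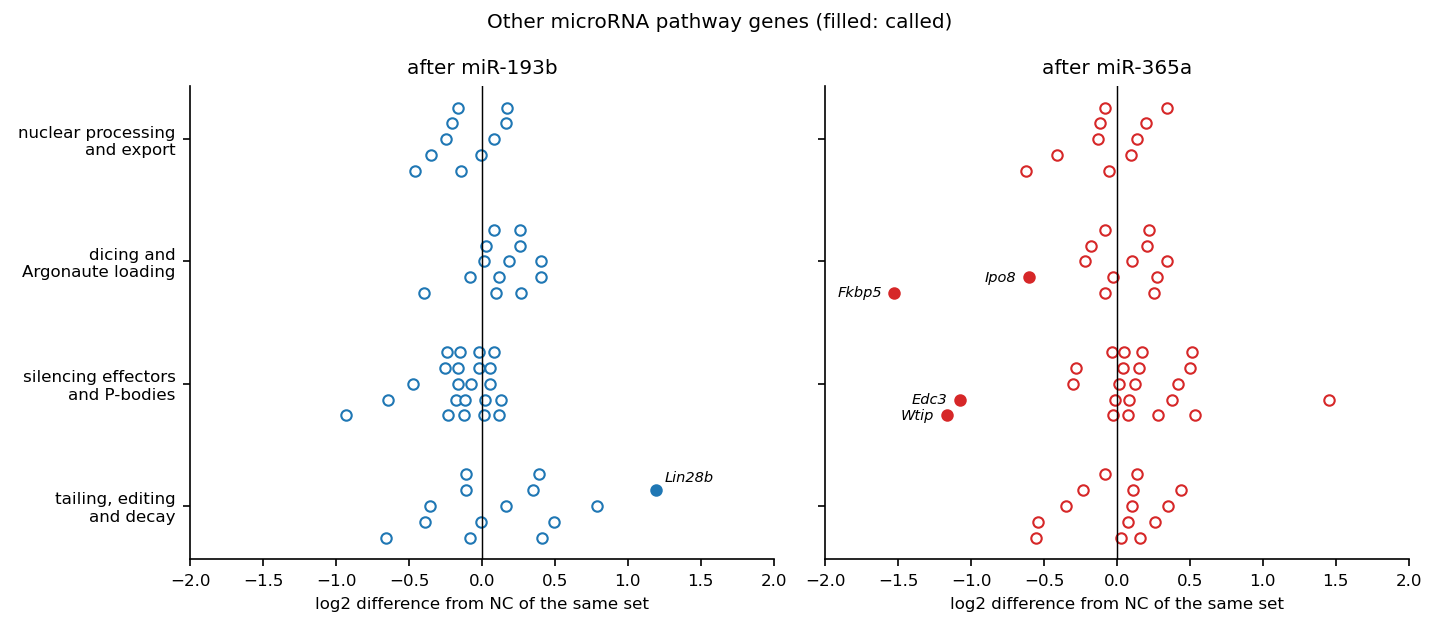
Log2 difference from the NC arrays of the same set (x axis) for the 59 tested genes of the 4 pathway lists (rows) after miR-193b (left) and miR-365a (right); each circle is 1 gene, its height within a row has no meaning, and filled circles were called. The 4 called genes after miR-365a all lie left of 0, between -1.53 and -0.60, and the 1 called gene after miR-193b lies at 1.20.

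Of 14 tested genes for tailing, editing and decay, 1 was called after miR-193b and 0 after miR-365a, beside 2.86% and 15.8% of all genes. Lin28b, which blocks maturation of the let-7 microRNAs, read -2.77 and -2.80 on NC and -1.64 and -1.55 on miR-193b, a rise of 2.29-fold (1.20 ± 0.13, adjusted p = 0.0206). The call was lost without NC replicate 1 of the 0.2 set (adjusted p = 0.0576), without miR-193b replicate 1 or 2 (0.0619 and 0.0697) and without either miR-365a array (0.0561), with differences of 1.15 to 1.24. It was also lost with the 0.2 set fitted alone (0.136), with slide as a fixed block (0.107) and with no filter on dim probes (0.0838). Against all 4 NC arrays, which puts the dim 0.6 set among the controls, the difference was 3.96 and was not called (0.302). Lin28b also passed the threshold for the difference between the microRNA effects (-1.43 ± 0.19, adjusted p = 0.0194, and in 10 of 21 alternatives). The miR-365a side of that value was not well above background on the microRNA or the NC arrays. It therefore does not measure a difference between the microRNAs. In the 0.6 set this probe, A_55_P1970905 (mm9 chr10:45096468-45096527), was not well above background on any array. Each dim NC array of the 0.6 set was counted at the lowest signal found there among probes well above background. Those levels averaged -7.64, above the -8.31 that this probe read. The NC arrays of the 0.2 set were then 28.9-fold brighter. This is not a strict lower limit, because a probe can read higher without being well above background. Ago4 did so on NC replicate 1 of the 0.6 set, at -6.84 beside that average. A second Lin28b probe, A_52_P532355, starts at base 376 of the transcript against base 5300 for the first. It was not well above background on any array of the 0.2 set, at -7.86 to -7.06, so the rise after miR-193b and the gap between the sets rest on the first probe.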

How the data were processed

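The deposited scanner files give, per the file headers, a processed signal (intensity, arbitrary units) from Agilent Feature Extraction 10.7.3.1, background-subtracted within each array, with probe positions on mm9. The authors also deposited a table of log2 values of the same arrays (medians of 7.04 to 7.05, r with their own array of 0.965 to 0.981 across probes), whose normalization is not given in the sources used here. The submitters' processing notes name limma. The scanner files also deposited flags for spots above background, saturated or outlying, stored as 0 or 1.

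Control spots were left out, and the 75th percentile of all gene spots of each array was subtracted from its log2 signals. Outlier spots were then removed, the remaining spots of a probe were averaged, and the brightest probe stood for a gene. The 17856 genes tested were well above background in both replicates of 1 or more groups. They were fitted with limma 3.58.1 in R 4.3.3, the model holding the set and each microRNA as terms. The fit had 4 residual degrees of freedom and a prior of 2.31. It was tested on simulated data. Figures used Python 3.11.15 and matplotlib 3.10.9. With 2 arrays a group, their number limits the precision. The files annotate 2894 probes differently between the sets, and symbols were updated through RefSeq tables (27495 probes by accession, 3544 by symbol, 403 by synonym, 7973 kept). Exons and untranslated regions of mm9 were not used here.

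The genes, lists and tests were chosen with earlier results of these data known. Named were the 10 genes always, then Ago3, Ago4, Tarbp2 and any called pathway gene. Mov10 was named outside this rule, after its values were seen. A gene not well above background on every array of a group has only an approximate bound there. It is given against the lowest probe well above background on each dim array, averaged over the arrays. Alternatives covered background correction, scaling, the deposited log2 table, dim probes, outlier spots, probe choice, names, variance, the set, slide and each array left out.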

Additional observations from a re-analysis of the deposited data

How the results depend on the processing

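The 4 genes called after miR-365a kept their direction in all 23 alternatives. Prkra stayed called in 20, Ago1 in 18, Tnrc6c in 17 and Tnrc6a in 16. Their differences ran from 0.97 to 1.24, -0.85 to -0.59, -1.52 to -0.76 and 0.61 to 0.94, and their adjusted p from 0.0028 to 0.0716, 0.0107 to 0.121, 0.0115 to 0.107 and 0.0142 to 0.158. No alternative called a member after miR-193b. Where an array was left out, its partner was taken to vary like the other groups. Of 680 alternative values of single genes, 636 kept direction and side of the threshold.

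Genes called after miR-193b numbered 972 with normexp, 844 with the deposited log2 values, 11 with no filter on dim probes, 872 with the filter asking for all 8 arrays, 1039 with a trended robust variance, 170 with slide as a fixed block, 283 against all 4 NC arrays and 0 with the 0.2 set alone (limma, 3106 at an unadjusted p under 0.05). Leaving out an array gave 9 to 277. After miR-365a they numbered 1057 with no filter, and 588 to 2831 with an array left out, and members called were 1 with no filter and 0 to 4 with an array left out. For the difference between the microRNA effects the counts were 1046 with normexp, 978 with the deposited values, 0 with no filter (3491 unadjusted), 1064 with the filter asking for all 8 arrays, 1117 with the trended variance, 131 and 1014 with slide as a fixed and a random block, 2587 against all 4 NC arrays and 0 to 553 with an array left out. The 0 arose without NC replicate 2 of the 0.6 set, where 3105 had an unadjusted p under 0.05. Members called for the difference were 1 with normexp, the deposited values, the filter on all 8 arrays or the trended variance (Ago1 each time), and 2 against all 4 NC arrays. The cause was not tested, except that fewer arrays leave fewer degrees of freedom.

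Signs turned only for values that were not called. Against all 4 NC arrays Xpo5 was 0.0983 after miR-193b, Drosha -0.0164 after miR-365a, and the difference was 0.0406 for Dicer1, -0.00635 for Drosha and -0.390 for Xpo5. With the deposited values the Dicer1 difference was 0.00147. With an array left out, Dgcr8 ranged from -0.371 to 0.194 after miR-193b and from -0.0337 to 0.267 after miR-365a, Drosha from -0.0138 to 0.205 and Xpo5 from -0.190 to 0.0663 after miR-365a. The difference then ranged from -0.0796 to 0.454 for Tnrc6b, -0.229 to 0.0262 for Dicer1, -0.0772 to 0.487 for Dgcr8 and -0.0590 to 0.198 for Xpo5.

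No paired analysis was possible because the labels carry no replicate numbers that link arrays across groups, and the numbers used follow the order of deposit. Slide took the place of a block. The alternatives of the called pathway genes were added after seeing the data.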

Other observations

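The second Lin28b probe, A_52_P532355, gave a processed signal of 279.6 on miR-365a replicate 2 and was well above background there. On the other 7 arrays it was between 4.51 and 8.82 and not well above background. On the same array the main Lin28b probe was not well above background, at a processed signal of 3.56.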
